A study of Oryza sativa Japonica Group with 96 samples.

Results

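The 150 array features described here are those whose expression in a rice line with inducible CRL1 exceeded that in its control line most at 6 and 9 h after induction and no longer did so by much from 27 to 45 h. They were chosen among 36643 features by a line difference, D, which is the mean log2 value of DXC minus that of DX at an hour, minus the same difference at 0 h. Features with a mean D over 27 to 45 h at or above 0.5 were left out, which kept 34565, and the 150 with the largest mean of D at 6 and 9 h were taken. That mean, called the peak value below, the late mean and every D at 6, 9 and 27 to 45 h therefore describe the choice and are given with no test. Of the 150 members, 102 carried 1 gene symbol, for 102 different genes, and 48 carried none.

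All plants were the crl1 mutant of Oryza sativa cv. Taichung 65, which lacks crown roots. DX was transformed with the empty vector pINDEX2 and DXC, a single transformed line, with pINDEX2 holding CRL1 under dexamethasone control. Both lines spent 5 days in dishes and 24 h in flasks, then received 1 µM dexamethasone, which a change of medium removed after 5 h, so that control plants went through the inducer and the new medium as well. Stem bases, 10 to 15 per sample, were taken at 16 hours from 0 to 45 h in 3 independent experiments, which gave 96 arrays and 3 for each line and hour. The study asked which transcripts follow CRL1 when it is switched on in a mutant without it.

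CRL1 encodes a transcription factor of the LOB domain family that acts downstream of auxin and is required for crown root primordia to form in the rice stem base. Crown roots are the shoot-borne roots that make up most of the root system of cereals. Founding a primordium draws on auxin and cytokinin signalling, on homeobox regulators of the new root meristem and on enzymes that remodel the cell wall.

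Array medians lay between 4.62 and 4.76 and the SD over the features of an array between 1.40 and 1.68. The mean correlation of an array with the others of its group was 0.901 to 0.982. Array SDs differed between the lines in the hours that chose the members. They were 1.40 to 1.42 in DX of experiment 3 at 3 to 9 h, 1.47 to 1.65 in the other DX arrays of those hours, and 1.62 to 1.68 in DXC. At 24 to 33 h the DXC arrays of experiment 3 had SDs of 1.63 to 1.65, against 1.43 to 1.52 in those of experiments 1 and 2. The part of these differences in the results below was not tested, apart from a repeat after quantile normalization. The induced gene, CRL1, was not analysed here, since none of the gene symbols of the array could be matched to it.

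Most members with the largest peak values were genes that the annotation gives by number alone. LOC4336268 led with a peak value of 3.35, a 10.2-fold difference. Its DXC arrays read 3.42, 3.43 and 3.46 at 0 h, then 6.75, 6.64 and 7.29 at 6 h and 6.16, 6.98 and 6.97 at 9 h, while DX read 3.37, 3.18 and 3.67 at 6 h. LOC9268927 followed with a peak value of 3.06. LOC9268927 read 5.13, 4.85 and 4.66 in DXC at 0 h and 8.63, 8.62 and 9.31 at 9 h, against 5.48, 4.76 and 5.77 in DX at 9 h. In both genes every DXC array of 6 and 9 h lay above every DX array of those hours. Those hours chose the members, so this separation comes in part from the choice. The other leading genes were LOC4327048 (2.87), LOC4349090, LOC4340119, LOC4327460 (2.39), LOC4346994, HMG1 (LOC9272427, 2.25), LOC4343224 and LOC4333262 (2.17), in that order. The next genes were LOC4334932, LOC4330203, LOC4336260, EXPB6 (LOC4349347), LOC4342270, LOC4333344, LOC4337259, LOC4331838, LOC4339130 and LOC4338041.

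Over all members the median peak value was 1.33, a 2.51-fold difference, and over all features it was -0.01. The last members were CML27 (LOC4332731), a calmodulin-like calcium sensor gene, at 1.16 and LOC9267261 at 1.15. Just outside stood a feature with no gene, 16126836, and LOC4325900, both at 1.15. The peak value was above 0 in each of the 3 experiments for 147 members and above 0.5 in each for 130, and its median was 1.21 in experiment 1, 1.23 in experiment 2 and 1.81 in experiment 3.

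**Figure D1:**
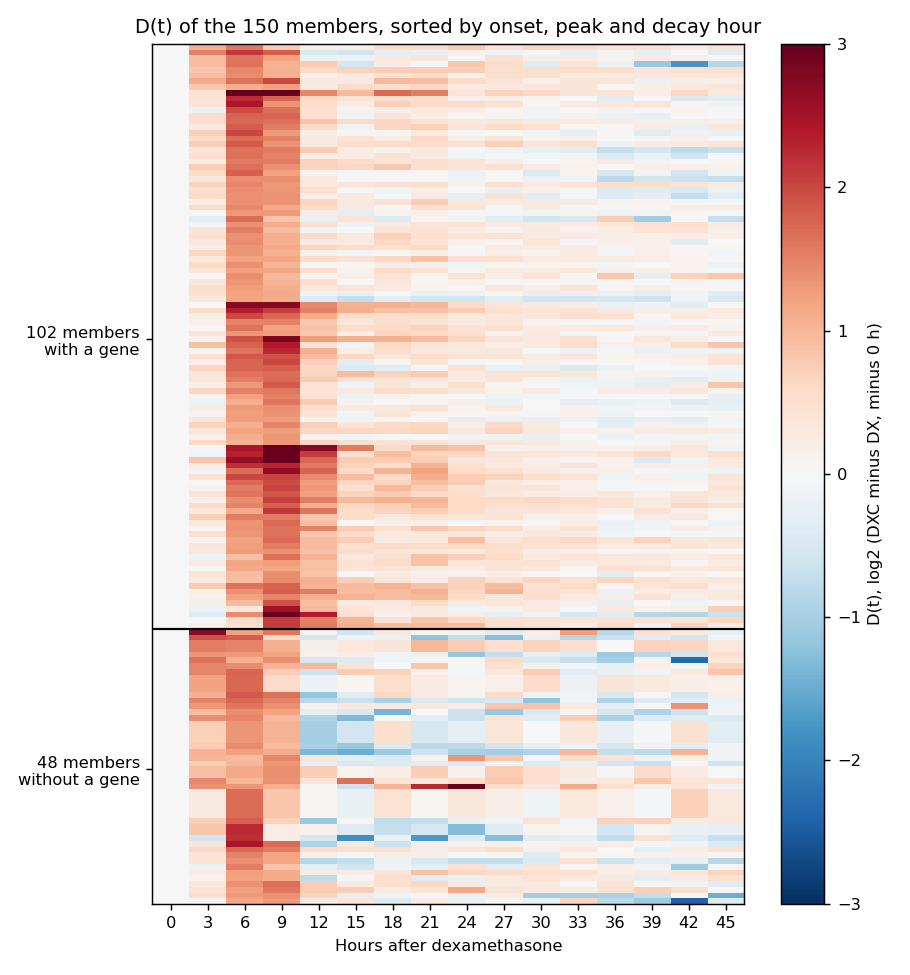
D, the log2 difference DXC minus DX relative to 0 h, of each of the 150 members (rows) at the 16 hours (columns), with the 102 members that have a gene above the line and the 48 without one below it, each sorted by onset, peak and decay hour. The 6 and 9 h columns are red because they chose the members; among members without a gene the red already begins at 3 h for many and gives way to blue at 12 and 15 h for some.

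Because the ranking used all 3 experiments, it was repeated on 2 of them and read in the one left out. For the 150 features that experiments 2 and 3 would choose, the median peak value in experiment 1 was 1.06 and 134 of the 150 were above 0. In experiment 2 the corresponding median was 0.87 with 109 above 0, and in experiment 3 it was 1.48 with 131 above 0. Over all features the median in experiments 1, 2 and 3 was -0.0049, -0.0026 and 0.0032, with 49.4%, 49.8% and 50.2% above 0. These lists shared 107, 91 and 92 features with the 150 members.

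Onset was read as the first of 3, 6 and 9 h at which D reached 0.5 of its largest value in those hours. Of the 102 members with a gene, 8 reached it at 3 h, 89 at 6 h and 5 at 9 h. The largest D of 3 to 24 h came at 6 h in 49 of these genes and at 9 h in 53. Median D of the members with a gene, 0.35 at 3 h, was 1.44 and 1.51 at 6 and 9 h and 0.65 at 12 h. Of these hours, 6 and 9 h chose the members. The steps from 3 to 6 h and from 9 to 12 h therefore come in part from that choice. Dexamethasone was taken away between the samples of 3 and 6 h, and its part in the step between them was not tested. Array SDs changed at the 9 to 12 h step as well. In DX of experiment 3 they were 1.40 to 1.42 at 3 to 9 h and 1.62 to 1.63 at 12 to 21 h. In DX of experiment 1 they were 1.47 to 1.49 and then 1.55 to 1.57. In DX of experiment 2 they were 1.61 to 1.65 and then 1.59 to 1.61. The part of these SDs in the 9 to 12 h step was not tested.

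The 8 genes with onset at 3 h were EXPB6, EXPB15 (LOC4336601), Hox13 (LOC4331890), LOC4343883, LOC4336129, LOC9270471, LOC4324827 and LOC4329264, the last a long noncoding RNA gene and the one member with a gene that is not protein coding. EXPB6 and EXPB15 encode beta-expansins, proteins that loosen the wall of growing cells, and Hox13 encodes a homeodomain-leucine zipper transcription factor. EXPB6 read 8.06, 9.12 and 9.88 in DXC at 3 h and 7.09, 7.78 and 6.76 in DX. The 3 h groups of EXPB6 did not overlap, but its 0 h arrays spread as widely, from 6.76 to 8.71 in DXC and from 6.08 to 8.86 in DX. Hox13 read 7.32, 7.77 and 7.61 in DXC and 7.07, 7.07 and 6.74 in DX at 3 h, again without overlap. None of these 8 genes passed the test at 3 h. The line difference at 3 h was 1.81 (SE 0.56, adjusted p = 0.162) in EXPB6, 1.37 (adjusted p = 0.624) in EXPB15 and 0.61 (adjusted p = 0.262) in Hox13. EXPB6 and EXPB15 had the widest 3 h difference of all members with a gene, followed by LOC4348262 (1.13, adjusted p = 0.0555), LOC4336260 (1.03, adjusted p = 0.094) and IAA6 (LOC4326541, 0.97, adjusted p = 0.13).

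The 5 genes with onset at 9 h were LOC4327460, LOC9271198, LOC4349141, LOC4345932 and LOGL4 (LOC4333807), which encodes an enzyme that releases active cytokinin. LOC4327460 showed the steepest late step. In DXC it read 5.07, 5.08 and 4.89 at 3 h, 6.61, 6.44 and 7.72 at 6 h, and 8.48, 8.46 and 9.20 at 9 h. Its DX arrays stayed between 4.75 and 5.17 over the same hours. LOGL4 read 5.91, 4.93 and 5.46 in DXC at 6 h, which overlapped the DX values of 5.21, 4.99 and 5.68, and 6.55, 6.41 and 7.38 at 9 h, above the DX values of 5.00, 4.79 and 5.53.

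**Figure D2:**
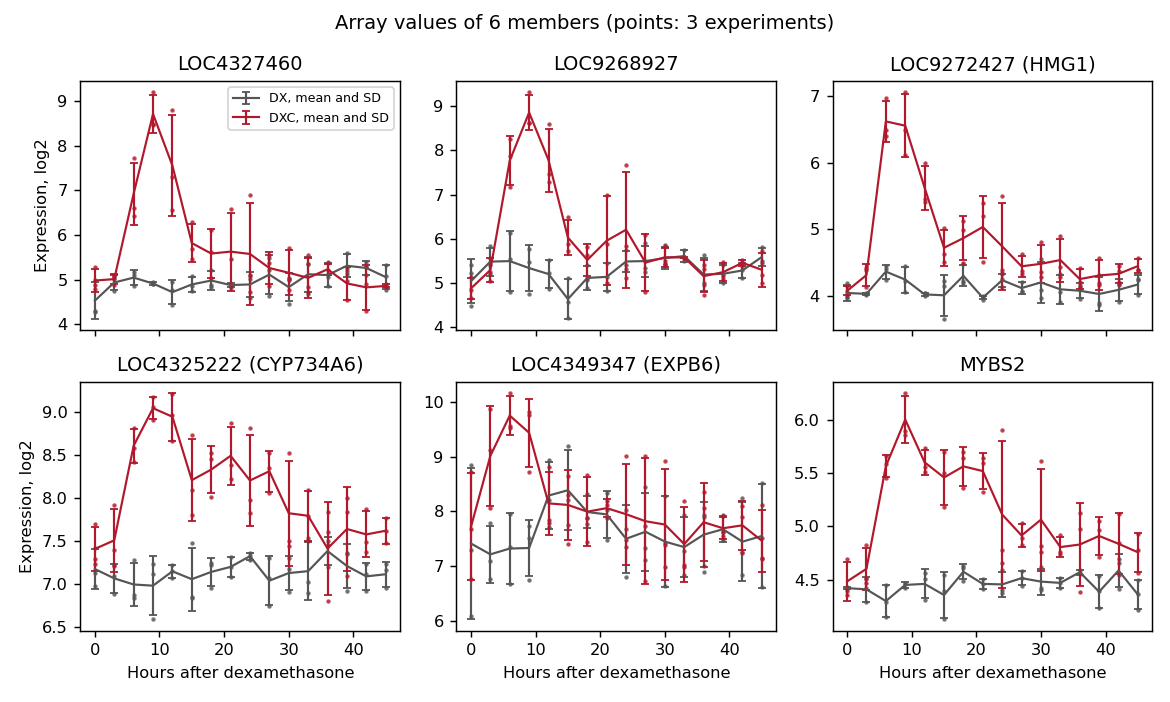
Log2 expression of 6 members against hours after dexamethasone, with points for the 3 experiments, lines for the means and bars for the SD, DXC in red and DX in grey. The EXPB6 arrays of DXC lie above those of DX at 3 h and among them at 12 h, LOC4327460 and LOC9268927 peak at 9 h, and CYP734A6 and MYBS2 remain above DX through 21 h.

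The members without a gene followed another course. Of these 48, 28 had their onset at 3 h and 20 at 6 h, and 31 had their largest D at 6 h. Their median D, 0.81 at 3 h already, was 1.45 and 1.08 at 6 and 9 h, 0.04 at 12 h and -0.21 at 15 h. Against 5.64 in members with a gene and 4.69 in all features, their median level was 4.64. The experiments differed. In experiments 1, 2 and 3 their median D was 0.69, 0.35 and 1.15 at 3 h and 0.19, -0.36 and -0.52 at 15 h. In 18 of them, in 6 sets, every array value was identical to that of another member, as it was for 3912 of the 36643 features of the array, so that the 150 members held 138 distinct profiles. No member with a gene was among these copies.

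The lines contributed differently to D in these groups of members. From 0 h to the mean of 6 and 9 h, the level in DXC was higher by a median of 1.39 in members with a gene and that in DX differed by -0.07. In members without a gene the median was 0.58 in DXC and -0.68 in DX. A lower level in DX made up the larger part of the peak value in 31 members, 29 of them without a gene, the other two being EXPB15 and LOC4329264. EXPB15 read 7.20, 8.82 and 8.27 in DX at 0 h and 6.44, 6.96 and 6.60 at 6 h. LOC4329264 read 4.81, 5.86 and 5.56 in DX at 0 h and 4.36, 5.41 and 4.62 at 6 h, and its DXC arrays lay between 5.25 and 5.34 at 0 h and between 5.56 and 6.20 at 6 h. After quantile normalization, which gives every array the same SD, the median peak value of members without a gene was 1.26 against 1.24, and that of members with a gene 1.34 against 1.44. With that normalization 134 of the 150 members would again be chosen.

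**Figure D3:**
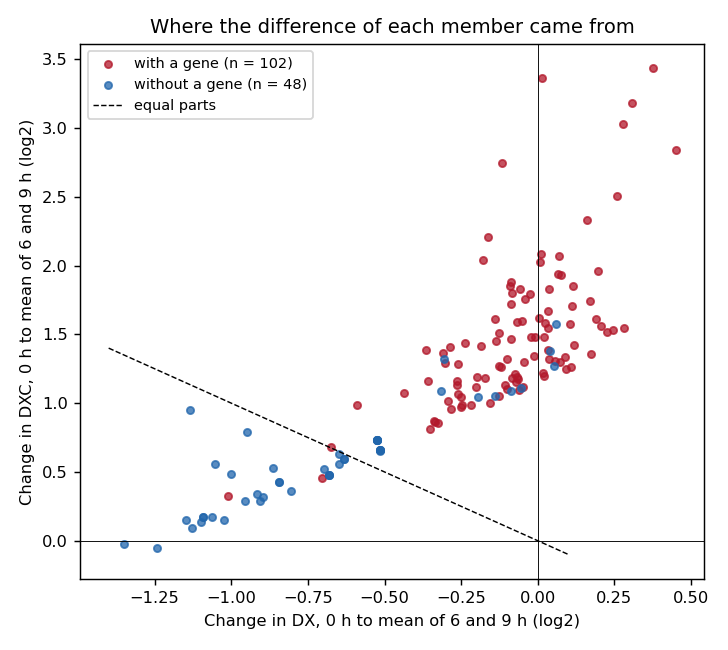
Change from 0 h to the mean of 6 and 9 h in DXC (vertical axis, log2) against that in DX (horizontal axis, log2), 1 point per member, red with a gene and blue without. Points below the dashed line of equal parts owe the larger part of their peak value to a lower level in DX; 29 of these 31 members have no gene.

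The hours 3, 12, 15, 18, 21 and 24 h played no part in the choice, so DXC minus DX at these hours, without the 0 h subtraction, was tested with limma across all features, with Benjamini-Hochberg adjustment over features and hours. The arrays were others than those of the rule, but from the same 3 experiments. At 12 h, 38 of the 150 members were called higher in DXC at an adjusted p under 0.05 and 0 lower, against 0.404% of all features called higher and 0.205% lower. Of the 38, 37 had a gene. At an unadjusted p under 0.05, 79 members were higher at 12 h, against 4.01% of all features, and 6, all without a gene, were lower, against 3.20%. Counting identical features once left 3 of these 6, a share no larger than that of all features. The median line difference of the members at 12 h was 0.61, and over all features it was -0.01. In bulk stem bases, more cells of a type and more RNA per cell cannot be told apart.

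LOC4327460 had the largest 12 h difference among the members called. It read 6.56, 7.31 and 8.80 in DXC and 4.43, 4.96 and 4.78 in DX, a difference of 2.84 (7.14-fold, SE 0.37, adjusted p = 6.1e-07). LOC9268927 read 7.28, 7.47 and 8.59 in DXC and 5.22, 5.52 and 4.87 in DX, a difference of 2.58 (SE 0.37, adjusted p = 1.03e-05). LOC4333262 read 6.25, 6.69 and 7.78 in DXC and 5.03, 4.46 and 4.83 in DX, a difference of 2.13 (SE 0.28, adjusted p = 7.72e-07). In these 3 genes the lines did not overlap and the DXC array of experiment 3 was the highest. The same array was the highest of the 3 DXC arrays in 109 of the 150 members at 12 h, and in 30.4% of all features. LOC4324860 was more even, at 6.06, 6.19 and 6.55 in DXC against 4.85, 4.97 and 4.78 in DX, and had the lowest adjusted p of all members (1.40, SE 0.17, adjusted p = 5.66e-08).

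Of the 38 calls, 11 remained whichever experiment was left out, namely LOC4327460, LOC9268927, LOC4333262, LOC4324860, LOC4328929, LOC4340119, LOC4331422, LOC4343224, LOC4327048, HMG1 and CYP734A6. Leaving out experiment 1, 2 or 3 kept 16, 18 or 23 of the 38. When the 0 h difference was subtracted, 5 calls remained (LOC4324860, LOC4328929, HMG1, LOC4327048 and LOC9268927).

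Among the 38 were genes of primary and sterol metabolism. HMG1 encodes 3-hydroxy-3-methylglutaryl-CoA reductase, the committed step of the mevalonate pathway to sterols. It read 4.15, 4.06 and 4.02 in DXC at 0 h, 6.49, 6.39 and 6.97 at 6 h and 5.45, 5.42 and 6.00 at 12 h, against 4.0, 4.04 and 4.04 in DX at 12 h. HMG1 was thus higher by 1.60 at 12 h (3.03-fold, SE 0.21, adjusted p = 6.1e-07), with every DXC array above every DX array. GDH2 (LOC4336554) encodes glutamate dehydrogenase, which links amino acid and carbon metabolism. GDH2 read 5.83, 5.79 and 6.40 in DXC and 4.80, 4.75 and 4.68 in DX at 12 h (difference 1.27, SE 0.22, adjusted p = 0.000407, and 0.0509 without experiment 3). ACC2 (LOC4338322) encodes acetyl-CoA carboxylase, which makes malonyl-CoA for fatty acids. It read 9.04, 9.04 and 9.31 in DXC and 8.22, 7.97 and 7.98 in DX at 12 h, a difference of 1.07 (SE 0.23, adjusted p = 0.012, but 0.281 or 0.11 when experiment 1 or 2 was left out).

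A further metabolic gene, TDC2 (LOC4343080), which encodes tryptophan decarboxylase, was not called at 12 h. TDC2 read 5.78, 5.53 and 6.16 in DXC against 4.20, 4.92 and 4.25 in DX at 6 h, an hour that chose the members. At 12 h it read 4.54, 4.82 and 5.20 in DXC and 4.48, 4.58 and 4.82 in DX, which overlapped, and the difference of 0.22 did not pass the test (adjusted p = 0.938).

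CYP734A6 (LOC4325222) and MYBS2 were the genes whose D took longest to drop below 0.5 of its peak, at 24 h. CYP734A6 encodes a cytochrome P450 that inactivates brassinosteroids, and MYBS2 a MYB-related factor that binds the sugar response element of alpha-amylase promoters. CYP734A6 read 8.65, 9.20 and 8.96 in DXC and 7.15, 7.07 and 7.22 in DX at 12 h, and 8.22, 8.38 and 8.86 in DXC and 7.31, 7.09 and 7.20 in DX at 21 h. The difference was 1.79 at 12 h (SE 0.25, adjusted p = 3.18e-06) and 1.29 at 21 h (adjusted p = 0.00221), and CYP734A6 was also called at 15 and 18 h. MYBS2 read 5.55, 5.51 and 5.74 in DXC and 4.31, 4.51 and 4.57 in DX at 12 h, and 5.32, 5.65 and 5.59 in DXC and 4.42, 4.51 and 4.46 in DX at 21 h. Its difference was 1.14 at 12 h (SE 0.18, adjusted p = 5.5e-05) and 1.06 at 21 h (adjusted p = 0.00026), with calls at 15 and 18 h too. Neither gene overlapped between lines at these hours. Without experiment 1 the adjusted p of MYBS2 was 0.0887 at 12 h and 0.0634 at 21 h, and that of CYP734A6 at 21 h was 0.0851 or 0.108 when experiment 2 or 3 was left out.

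Fewer members were called after 12 h. There were 11 at 15 h, where 0.199% of all features were called higher, and 11 at 18 h, where 0.235% were. The 16 members called at 21 h stood against 0.21% of all features, and the 2 of 24 h against 0.0546%. No member was called lower by limma at any of the 6 hours. At an unadjusted p under 0.05, 0 members were lower outside 12 h, where 14.2% of all features were lower for 3 h, 3.27% for 15 h, 2.82% for 18 h, 2.12% for 21 h and 0.892% for 24 h. Over all features the share called lower at an adjusted p under 0.05 was 0.0928% for 3 h, 0.104% for 15 h, 0.101% for 18 h, 0.0628% for 21 h and 0.0382% for 24 h. In all, 44 members were called at 1 or more of these hours, 41 of them with a gene, and 106 at none. Of all features, 99.2% were called higher at none of the 6 hours.

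None of the calls at 15, 18, 21 or 24 h remained whichever experiment was left out. Of the calls for 15, 18 and 21 h, leaving out experiment 1 kept 0, 2 and 4, leaving out experiment 2 kept 3, 1 and 1, and leaving out experiment 3 kept 4, 7 and 9. With the experiment as a block in the fit, 52 members were called higher for 12 h, against 0.63% of all features in that fit, and 17 for 15 h, against 0.363%. There were 21 for 18 h, against 0.409%, 27 for 21 h, against 0.379%, and 10 for 24 h, against 0.164%. All 3 DXC arrays lay above all 3 DX arrays in 54 members for 15 h, against 5.82% of all features, in 71 for 18 h, against 7.18%, and in 78 for 21 h, against 6.72%. For 24 h this held for 30 members, against 2.84%.

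LOC4336268, the member with the largest peak value, had its later excess in uneven steps. Its DXC arrays read 4.63, 4.73 and 5.81 at 12 h, 3.90, 4.25 and 5.13 at 15 h, 4.15, 5.64 and 4.98 at 18 h and 4.77, 4.26 and 5.19 at 21 h. The DX arrays of LOC4336268 read 3.59, 3.69 and 3.57 at 12 h and 3.22, 3.34 and 3.21 at 18 h. The difference was 1.44 at 12 h (adjusted p = 0.00066), 0.95 at 15 h (adjusted p = 0.0812), 1.67 at 18 h (adjusted p = 3.81e-05) and 1.51 at 21 h (adjusted p = 0.000305). At 24 h the DXC arrays read 3.51, 4.22 and 4.04 and overlapped the DX arrays at 3.45, 3.77 and 3.47. LOC4336268 was not called at 12 h without experiment 3 (adjusted p = 0.196), at 18 h without experiment 2 (0.0768) or at 21 h without experiment 1 (0.0673).

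LOC4327048 and LOC4349090, next in peak value after the leading pair, were called at 12 h alone. LOC4327048 read 7.73, 7.88 and 8.39 in DXC at 9 h, 5.98, 6.45 and 7.20 at 12 h and 4.84, 4.84 and 5.47 at 15 h, against 4.78, 4.49 and 4.87 in DX at 12 h and 4.84, 4.87 and 4.65 at 15 h. Its difference was 1.83 at 12 h (adjusted p = 3.69e-05) and 0.26 at 15 h (adjusted p = 0.906), where the lines overlapped. LOC4349090 read 7.82, 7.87 and 8.84 in DXC and 6.44, 6.86 and 6.33 in DX at 12 h (difference 1.63, SE 0.33, adjusted p = 0.00587), and its 15 h difference of 0.67 did not pass (adjusted p = 0.464). The 12 h call of LOC4349090 did not remain without any 1 of the 3 experiments (adjusted p = 0.0618 to 0.191).

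The 5 genes called at all of 12, 15, 18 and 21 h were CYP734A6, MYBS2, LOC4324860, LOC4340119 and LOC4345932. Of all features, 0.0491% were called higher at any 4 of the 6 hours, 0.0218% at 5 and 0.00819% at 6. LOC4324860 read 5.42, 5.33 and 5.89 in DXC and 4.67, 4.90 and 4.53 in DX at 15 h, and 5.47, 5.61 and 5.61 against 4.66, 4.64 and 4.70 at 21 h, without overlap. LOC4340119 read 5.67, 5.83 and 5.91 in DXC and 4.14, 4.47 and 4.67 in DX at 15 h, and 5.56, 5.81 and 6.43 against 4.65, 4.54 and 4.62 at 21 h, again without overlap. At 21 h the difference was 0.90 in LOC4324860 (SE 0.17, adjusted p = 0.00142) and 1.33 in LOC4340119 (SE 0.28, adjusted p = 0.00758). LOC4345932 was in addition the one gene called at 24 h. There it read 5.44, 5.50 and 6.55 in DXC and 4.54, 4.69 and 4.36 in DX, without overlap (difference 1.30, SE 0.31, adjusted p = 0.03, but 0.327 or 0.553 when experiment 1 or 3 was left out). The other call at 24 h was a feature without a gene, 16300518, whose DXC arrays read 3.02, 11.97 and 5.06 against 2.79, 3.30 and 2.62 in DX. Its DXC arrays overlapped those of DX, and its adjusted p of 0.0356 became 0.578 without experiment 2. The next widest 24 h differences among genes were those of EXPB15 (1.25, adjusted p = 0.695), LOC4331422 (1.10, adjusted p = 0.117), LOC4330203 (1.00, adjusted p = 0.209) and LOC4333262 (0.95, adjusted p = 0.125).

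The 24 h values differed between experiments. The median line difference over the members at 24 h was 0.31 in experiment 1, -0.13 in experiment 2 and 0.89 in experiment 3, and over all features it was -0.01, -0.03 and 0.03. The DXC array of experiment 3 was the highest of the 3 in 136 of the 150 members, and in 49.9% of all features. HMG1, for example, read 4.40, 4.35 and 5.50 in DXC at 24 h and 4.25, 4.14 and 4.33 in DX. At 12 h the corresponding medians were 0.55, 0.41 and 0.76, so that all 3 experiments lay on the same side at 12 h and not at 24 h. This held at 12 h for members with a gene (0.72, 0.61 and 1.10) and not for those without one (0.32, -0.62 and -0.14).

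**Figure D4:**
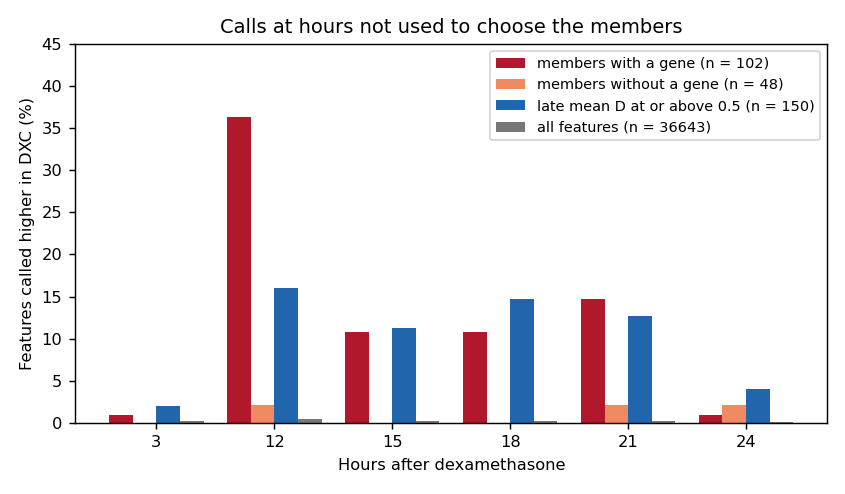
Share of features called higher in DXC (limma, adjusted p under 0.05) at the 6 hours that did not choose the members, for members with a gene, members without a gene, 150 features chosen alike except for a late mean at or above 0.5, and all features. Among members with a gene 37 of 102 were called at 12 h and 1 of 102 at 24 h.

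Before the peak, at 3 h, 1 member was called higher, against 0.188% of all features, while 46.0% of the members and 20.3% of all features were higher at an unadjusted p under 0.05. This was LOC4324899, which read 7.05, 7.31 and 7.12 in DXC and 6.35, 6.60 and 5.71 in DX, without overlap (difference 0.94, SE 0.23, adjusted p = 0.0411). The call did not remain when any of the 3 experiments was left out, with adjusted p of 0.44, 0.0868 and 0.35, nor with the 0 h difference subtracted (adjusted p = 0.769). With the experiment as a block, 7 members were called higher at 3 h, against 1.09% of all features in that fit. All 3 DXC arrays lay above all 3 DX arrays at 3 h in 65 of the 150 members, against 16.4% of all features, and at 12 h in 77, against 7.62%. As 3 h shares its assumed array set with 0, 6 and 9 h, the 3 h shares can come in part from the choice.

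The decline after 12 h was tested directly as the line difference at 24 h minus that at 12 h. No member was called, nor was any other feature (0% of all features at an adjusted p under 0.05 in limma). At an unadjusted p under 0.05, 25 members were lower and 1 higher, against 1.04% and 0.841% of all features. The median of this contrast was -0.29 over the members, -0.40 over those with a gene and 0.27 over those without. Over all members it was -0.49 when experiment 3 was left out and -0.14 when experiment 2 was. The decay of single members between 12 and 24 h was therefore not detectable in this test, and the hours below are a description.

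For the members with a gene, D first dropped below 0.5 of its peak at 12 h in 65 genes and at 15 h in 31. In 2 genes this took until 18 h and in 2 until 24 h, and 1 gene each did so at 9 and 21 h. Of the 48 members without a gene, 28 did so at 12 h and 14 already at 9 h. Median D of the members with a gene, as a share of the mean of the medians at 6 and 9 h, was 44.3% for 12 h, 26.6% for 15 h, 32.4% for 21 h, 21.6% for 24 h and 4.40% for 45 h. Genes that peaked at 9 h had a median line difference of 0.99 at 12 h and 27 of 53 were called, whereas those that peaked at 6 h had 0.62 and 10 of 49. No gene with onset at 3 h was among the calls of 12 h, against 34 of the 89 with onset at 6 h and 3 of the 5 with onset at 9 h. EXPB6, of early onset, had overlapping lines by then, with 7.84, 7.79 and 8.81 in DXC and 8.22, 8.93 and 7.72 in DX at 12 h (difference -0.14, adjusted p = 0.995). Onset and peak hours come from the arrays that chose the members, so these shares were not tested against each other.

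**Figure D5:**
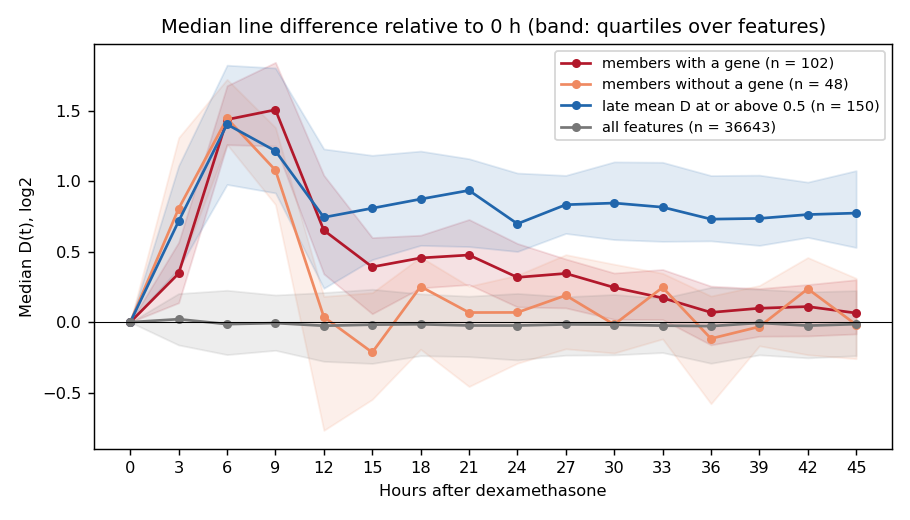
Median D (log2, line difference relative to 0 h) against hours after dexamethasone for members with a gene, members without a gene, the 150 features with a late mean at or above 0.5 and all features, with bands from the lower to the upper quartile of features. Members with a gene stand at 1.51 at 9 h and 0.65 at 12 h; the line of all features stays near 0.

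Of the 18 members with a short name, 5 encode proteins that act on the cell wall. Besides EXPB6 and EXPB15 these are EXP5 (LOC4330706), an alpha-expansin gene, MAN2 (LOC4326178), for an endo-beta-mannanase that cuts mannan in the wall, and TBL13 (LOC4338512), for a xylan acetyltransferase. MAN2 read 9.48, 9.79 and 9.45 in DXC and 7.12, 7.84 and 7.46 in DX at 6 h, and 8.92, 9.33 and 9.93 against 7.86, 8.12 and 8.47 at 12 h. Its lines did not overlap at 12 h, but the 12 h difference of 1.24 missed the threshold (SE 0.31, adjusted p = 0.0515). EXP5 read 7.30, 7.21 and 7.30 in DXC and 5.59, 5.94 and 4.99 in DX at 6 h, and at 12 h its difference was 0.60 (adjusted p = 0.375). TBL13 read 6.38, 6.01 and 6.24 in DXC and 5.05, 5.14 and 4.94 in DX at 6 h, and its 12 h difference was 0.58 (adjusted p = 0.171). None of these 5 wall genes was called at any of the 6 hours tested. Short names came from synonyms in the annotation, and members without one were not sorted by function. The share of wall genes among all features with a short name was not computed.

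Of 41 expansin features 3 were members, where 150 of all 36643 features were. EXP16 (LOC4341549) was called higher at 12 h and EXPB17 (LOC4336479) at 18 h, 1 of 41 at each hour beside 0.404% and 0.235% of all features, and neither is a member. EXP6 (LOC4332763) was called lower at 12 and 15 h, 1 of 41 at each hour beside 0.205% and 0.104% of all features. Median D of the 41 was -0.03 at 6 h. Of 5 mannanase features 1 was a member, and their median D at 6 h was 0.52. In limma 0 of the 5 were called at any hour tested. At an unadjusted p under 0.05, 3 were higher at 3 h, against 20.3% of all features, and 2 at 12 h, against 4.01%. For 15 h 1 was higher and 1 lower, against 3.93% and 3.27% of all features. For 18 and 21 h 1 was higher, against 4.2% and 3.7%. Of 7 features of the TBL family 1 was a member and 0 were called. Counts of 0 in 5 and in 7 are at the background share. Probe sequences were not used here, so signal from near-identical expansin copies cannot be told apart.

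Regulators and hormone genes made up the rest of the named members. QHB (LOC4324824) is the homeobox gene that marks the quiescent centre of the rice root. It read 5.27, 5.47 and 5.97 in DXC and 4.60, 3.92 and 4.64 in DX at 6 h, an hour that chose the members. At 12 h QHB read 4.13, 4.49 and 4.71 in DXC and 4.0, 4.39 and 4.07 in DX, which overlapped (difference 0.29, adjusted p = 0.719). Hox13 read 8.13, 8.26 and 8.54 in DXC and 7.01, 6.94 and 7.31 in DX at 6 h, and its 12 h difference was 0.34 (adjusted p = 0.688). CML27 read 7.80, 7.19 and 8.29 in DXC and 6.16, 6.65 and 5.58 in DX at 6 h, and at 12 h its difference was 0.04 (adjusted p = 0.998). IMCEL2 (LOC4326560), for an isoprenylcysteine methylesterase-like protein, had a peak value of 1.18 and a 12 h difference of 0.55 (adjusted p = 0.247). Of the auxin and cytokinin genes, GH3.1 (LOC4327043), which conjugates auxin to amino acids, had a peak value of 1.52, IAA6, an Aux/IAA repressor gene, 1.26 and LOGL4 1.31, and their 12 h differences of 0.42, 1.02 and 1.11 did not pass the test (adjusted p = 0.561, 0.105 and 0.06).

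Of 11 features listed as crown root regulators, QHB alone was a member. None of the 11 was called higher at the 6 hours tested, where at most 0.404% of all features were. WOX11 (LOC4344325), a homeobox gene of crown root growth, was called lower in DXC at 18 h (difference -0.99, adjusted p = 0.0117). At 18 h 0.101% of all features were called lower. The regulator hox14 (LOC4343726) had a peak value of 1.09, below the last member. Of 4 radial patterning features, which hold QHB as well, SCR1, SHR1 and SHR2 were no members, and 0 of the 4 were called. Counts of 0 in 11 and in 4 are at the background share.

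The markers listed for other tissues that a stem base sample can hold were few. No feature of the shoot meristem KNOX list (11), the leaf photosynthesis list (12) or the seed amylase and storage list (17) was a member. Of these 40 features 0 were called at any of the 6 hours. The lists were matched by symbol patterns, so an entry such as PYL11 (LOC4338104) in the photosynthesis list need not be a marker of that tissue. With 150 members among 36643 features, and at most 0.404% of all features called higher at an hour, a count of 0 in 40 is at the background share. Mean level over the KNOX list was 4.59 to 4.72 in DX and 4.47 to 4.68 in DXC at 6 and 9 h. Over the photosynthesis list it was 6.05 to 6.86 in DX and 6.36 to 6.71 in DXC, and over the seed list 3.28 to 3.58 and 3.29 to 3.36. The lines overlapped in all 3 lists at 6 and 9 h. At 0 h the photosynthesis list stood at 6.49 to 6.82 in DX and 6.86 to 7.12 in DXC, without overlap, and its median D was -0.59 at 12 h; its part in the results was not tested.

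The members were set beside the 150 features ranked in the same way but with a late mean D of 0.5 or more. Their median D at 6 h was 1.40, close to the 1.44 of the members, but at 12 to 24 h it lay between 0.70 and 0.93, where that of the members lay between 0.25 and 0.50. For 12, 15, 18, 21 and 24 h, 24, 17, 22, 19 and 6 of these 150 were called higher. The median line difference before induction was -0.40 in them and 0.07 in the members. Without the 0 h subtraction the order at later hours was the reverse. For 12, 15, 18, 21 and 24 h their median line difference was 0.09, 0.21, 0.26, 0.32 and 0.18. That of the members was 0.61, 0.32, 0.40, 0.46 and 0.34. As the late mean split the lists, their difference in later hours was not tested.

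In the gene order of the RefSeq assembly ASM3414082v1, 101 of the protein-coding members could be placed, and 5 pairs lay within 10 gene steps of each other. LOC4331887 and Hox13 were separated by 1 gene. GH3.1 and LOC4327048 had 3 genes between them, as did QHB and LOC4324827. LOC4336260 and LOC4336268, the member with the largest peak value, had 5 genes between them, and LOC4328929 and LOC4328939 had 8. No share expected for other gene sets was computed.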

How the data were processed

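Rice stem base RNA, labelled as biotinylated cDNA, was measured on 96 single-colour Affymetrix arrays. The deposited table holds log2 expression values that the authors had normalized; GCRMA is named per the submitters' processing notes, without a version or settings. The table had 0 columns without a sample. With no scanner output among the files used, whether a probe was above background is unknown. Precision is set by the 3 arrays per group.

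The 32 groups of line and hour were fitted together with limma 3.58.1 in R 4.3.3 (lmFit, then eBayes with trend, on 64 residual degrees of freedom). DXC minus DX was tested at 3, 12, 15, 18, 21 and 24 h with 1 Benjamini-Hochberg adjustment over all features and these 6 hours, and the 24 h minus the 12 h difference with an adjustment over all features. A feature was called at an adjusted p under 0.05. The fit was tested on simulated data. Group values are in log2 units and a fold is 2 to the power of a difference. Members, kinetic measures and tables used Python 3.11.15 with pandas 2.3.3 and numpy 2.4.6, and figures used matplotlib 3.10.9.

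In the platform annotation 24161 features have 1 gene symbol, 90 have several and 12392 have none. Symbols were updated by gene number in the RefSeq table of assembly ASM3414082v1, which held all 102 members with a gene. Sequences of the members were not used here.

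The series design text makes each replicate number an independent experiment, which pairs the lines. Over the 48 pairs of one number and hour, deviations from the group means had a mean correlation of 0.0527, and pairs of unequal numbers had -0.029; 16 exceeded 0.1 and the lowest was -0.641. Counts with the experiment as a block stand beside the counts they move.

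The members, the lists and the tests were chosen with earlier results of these data known. Genes named were the 20 with the largest peak value, the 5 with the largest line difference at 3 h and at 24 h, members with a symbol that is not a LOC number, the last 2 members and the next 2 features. Genes named only by a synonym, the calls and onset groups spelled out, and the expansin, mannanase and TBL lists were added after their values were seen.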

Additional observations from a re-analysis of the deposited data

Results flagged for a closer look

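Members with a gene that were named by rule or had a short name were compared between 3 and 12 h and between 12 and 24 h. Of these, 1 was picked out because its line difference lay on opposite sides of 0 at such a pair in every experiment. The other members, among them all 48 without a gene, were not searched. QHB (LOC4324824) was lower in DXC than in DX at 3 h in all 3 experiments, by a mean difference of -0.28, and higher at 12 h in all 3, by a mean of 0.29, so that the difference at 12 h exceeded that at 3 h by 0.5681. The difference between these hours was not tested, and neither single hour passed the test (adjusted p = 0.733 at 3 h and 0.719 at 12 h, limma). Before induction, at 0 h, the mean of QHB was already lower in DXC, at 4.02 against 4.22 in DX.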

How the results depend on the processing

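No single call of a member turned its direction under the alternatives run, and 0 members were called in the 24 h minus 12 h contrast under all of those run. With the experiment as a replicate block, which pairs the lines by the stated experiments, members called higher at 3, 15, 18, 21 and 24 h numbered 7, 17, 21, 27 and 10, against 1, 11, 11, 16 and 2. A random block of array sets (4 consecutive hours of a line and experiment, correlation 0.439) gave 6 at 3 h and 17 at 18 h. These sets were assumed here and are not given by the sample labels. Quantile normalization gave 8 at 24 h. A fit of the 6 tested hours alone gave 7 at 15 h, 10 at 21 h and 1 at 24 h, and features above the median level alone gave 3 at 3 h. With the 0 h difference subtracted, which shares arrays with the choice of members, the counts were 0, 5, 0, 1, 0 and 0 at 3, 12, 15, 18, 21 and 24 h. Leaving out 1 experiment gave 0 to 2 calls for 3 h, 17 to 23 for 12 h, 0 to 4 for 15 h, 1 to 11 for 18 h, 1 to 10 for 21 h and 0 to 1 for 24 h. Of the members with 1 gene symbol, an alternative added after seeing the data, 1 was called at 24 h. The choice of members kept 78 of 150 without the 0 h subtraction and 91 to 107 without 1 experiment; it kept 104 with a late limit of 0.25, 100 with 1, 134 after quantile normalization and 138 when identical features were ranked once. Of the 79 single calls, 79 remained with the replicate block and after quantile normalization, 76 with the random block, 54 in the fit of 6 hours, 6 with the 0 h difference subtracted, and 23, 24 and 43 without experiments 1, 2 and 3. Fewer arrays entered the fit of 6 hours and those without an experiment. Subtracting the 0 h difference brought the spread of the 0 h arrays into the contrast, so its SE was larger. How far this or a changed difference lowered the counts was not tested, nor was the cause of the other changes. Protein family and promoter motif lists were not run, as no sequences were used here.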
